A study of Mus musculus with 44 samples.

Results

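Heart muscle genes were followed in mouse lung RNA. The 9 genes, chosen by name and found in both deposited tables of normalized values (9 of 24150 genes in the subcutaneous table and 9 of 26940 in the intratracheal table), were Myh6, Myl4, Myl7, Actc1, Tnnt2, Tnni3, Ryr2, Sln and Nppa. The study sequenced polyadenylated RNA from 44 lungs of C57BL6j mice, each from a piece of about 3 mm3, to ask what recombinant human TIMP2 protein (rTIMP2) and a mutated Timp2 gene do in lung cancer models. In the subcutaneous model (14 libraries), all mice were wild type for Timp2 and had LL/2-Luc2 cells, a luciferase-tagged mouse line of Lewis lung carcinoma, injected under the skin of the flank, and their lungs are labelled as early metastatic. They received rTIMP2 from day 7 (n = 4), rTIMP2 from day 0 (n = 5) or the vehicle HBSS (n = 5). In the intratracheal model (30 libraries), mice with mutant Timp2 (MT2) and wild-type mice (WT) received LL/2-Luc2 cells by the trachea with rTIMP2 or with HBSS, or stayed tumour-free (n = 5 in each of the 6 groups). Daily injections of rTIMP2 into the peritoneum gave 200 µg per kg. The age and sex of the mice, the nature of the Timp2 mutation and the lobe or depth from which each piece was cut are not stated in the labels.

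In the mouse, a sleeve of striated heart muscle runs from the left atrium along the pulmonary veins into the lung, so that lung RNA carries transcripts of the sarcomere, of calcium release and of atrial hormones. These cells resemble atrial muscle: they use the light chains Myl4 and Myl7, the alpha myosin heavy chain Myh6 and the calcium pump inhibitor Sln, and they make the atrial natriuretic peptide Nppa. In a piece of tissue, fewer cells of this type and less RNA per cell cannot be told apart, and a piece can hold more or less of a vein, so every level below is a level of the piece.

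The genes lie on different chromosomes except for Myl4 (chromosome 11, 104550663 to 104595753) and Myl7 (chromosome 11, 5896637 to 5898782), which lie far apart on the same one. Coordinates are mm10, as in the GENCODE annotation. Myh6 spans 54941921 to 54966927 on chromosome 14, beside the closely similar Myh7. Actc1 spans 114047282 to 114053548 on chromosome 2, Tnnt2 135836354 to 135852260 on chromosome 1, Tnni3 4518305 to 4524229 on chromosome 7 and Ryr2 11553102 to 12106945 on chromosome 13. Nppa spans 148000722 to 148002079 on chromosome 4 and Sln 53850164 to 53854560 on chromosome 9. Reads shared between Myh6 and Myh7, or between Actc1 and other actin genes, could have been split between them, so the single values of these genes are uncertain to that extent.

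Since the 9 genes moved together from lung to lung within groups (median r over 36 pairs of 0.90 in the subcutaneous and 0.92 in the intratracheal table, as a description), their promoters were read for sites of factors known in muscle: the CArG box bound by serum response factor, the MEF2 site, AGATAA for GATA factors and AAGTG for NKX2-5, on both strands of the window from 250 bases before to 50 bases after the start. Promoter sequences came from RefSeq on GRCm38.p6 and matched 8 of the 9 genes, all but Sln. A CArG box, held by 1.629% of all 32851 promoters, was found in the promoters of Actc1 and Myl7. AAGTG, held by 46.38%, was found in those of Myh6, Myl4, Myl7 and Nppa, and AGATAA, held by 11.18%, in that of Tnnt2. A MEF2 site, held by 3.187%, was found in 0 of the 8. The 120 bases before the start are printed for the actin and the light chain with a CArG box (in capitals) and for the heavy chain and the hormone with AAGTG (in capitals), read 5′ to 3′ on the gene's strand, as examples of a contractile gene pair with a rare element and of genes with a common one. The windows are chr2:114052876-114052995 (minus strand) for Actc1, chr11:5898783-5898902 (minus) for Myl7, chr14:54966608-54966727 (minus) for Myh6 and chr4:148000602-148000721 (plus) for Nppa.
Actc1: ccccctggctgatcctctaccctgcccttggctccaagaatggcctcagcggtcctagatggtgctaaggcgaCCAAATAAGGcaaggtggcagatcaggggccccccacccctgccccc
Myl7: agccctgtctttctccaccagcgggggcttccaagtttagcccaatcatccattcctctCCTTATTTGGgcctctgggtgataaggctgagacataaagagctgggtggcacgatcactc
Myh6: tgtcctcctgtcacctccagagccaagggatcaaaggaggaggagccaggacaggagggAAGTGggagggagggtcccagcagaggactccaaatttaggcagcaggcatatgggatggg
Nppa: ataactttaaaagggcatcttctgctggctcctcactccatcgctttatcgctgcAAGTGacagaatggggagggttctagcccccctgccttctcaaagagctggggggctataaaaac
The CArG box starts 47 bases before the start of Actc1 and 61 bases before that of Myl7. The start is that of the RefSeq entry, which for Actc1 and Myh6 lies inside the longer GENCODE span given above, and for Myl7 and Nppa is the same in both. These matches describe the letters of the windows and say nothing of binding.

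The normalized values summed to 16.0 to 17.7 M per subcutaneous library and 11.8 to 14.6 M per intratracheal library. Dividing each sum by the step between low values gave about 14.9 to 19.4 M and 10.7 to 17.1 M reads. These read numbers are rough, because only 78.9 to 84.5% of low values were whole multiples of that step. The reporter Luc had no signal (0) in any of the 10 tumour-free lungs. It was between 39.3 and 70.9 in the lungs given tumour cells with HBSS, and at 0 to 75.5 in those given tumour cells with rTIMP2. In 6 libraries the skeletal muscle markers summed to between 10784 and 230705, against 89.0 to 881 in the other 38. These 6 were HBSS replicate 1 of the subcutaneous model, WT rTIMP2 replicates 2 and 3, MT2 HBSS replicate 4, and WT HBSS replicates 1 and 4. In 5 of them Krt13, a keratin of squamous epithelium such as that of the oesophagus, was at 9776 to 114425, and in MT2 HBSS replicate 4 it was at 613.

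Markers of heart chambers gave a mixed picture in the tumour-free lungs. Myl2, the ventricular regulatory light chain, was listed at 0 in all 5 WT tumour-free lungs and at 0 to 2.72 in the MT2 ones. Myl3, the ventricular and slow skeletal essential light chain, was at 36.6 to 69.2 across both genotypes. Bmp10, a growth factor of the atrial wall, was listed at 0 in all 10, and Nppb, the second natriuretic peptide of the heart, stayed at or below 1.94. The transcription factor Nkx2-5, which takes part in forming the pulmonary vein myocardium in mice, was low, at 2.72 to 16.3. Myh7, the heavy chain of ventricular and slow skeletal muscle, was at 447 to 605 in the MT2 and 425 to 578 in the WT tumour-free lungs, with the doubt about reads shared with Myh6. The values do not locate the cells, so a sleeve around a vein and a piece of atrium carried along were not told apart.

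Per kilobase of merged exons, the levels in WT tumour-free lungs spanned a wide range. Myl7 (1212 ± 227 per kb, SD, n = 5) and the thin filament actin Actc1 (1128 ± 105) stood highest, with overlapping spreads. The motor Myh6 followed at 584 ± 57.0 per kb. Next came Nppa (312 ± 203 per kb), Myl4 (233 ± 47.1), Sln (170 ± 20.4), Tnni3 (162 ± 21.5) and Tnnt2 (132 ± 14.2), a run in which the ranges of 1 SD around the means overlapped between neighbours. Ryr2, the calcium release channel with by far the longest message of the 9, was last at 8.88 ± 1.41 per kb. Merged exons can be longer than any one transcript, which lowers the per-kilobase level most for genes with many alternative exons, such as Tnnt2 (7.752 kb). The order of the light chains rests on this length, 4.637 kb for Myl4 and 0.59 kb for Myl7. Before division, Myl4 averaged 1079 and Myl7 715 in WT tumour-free lungs. In all, the 9 genes took 0.0603 to 0.0819% of the WT tumour-free libraries, 0.0389 to 0.0977% of the MT2 tumour-free ones and 0.0443 to 0.130% of the subcutaneous ones.

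**Figure D1:**
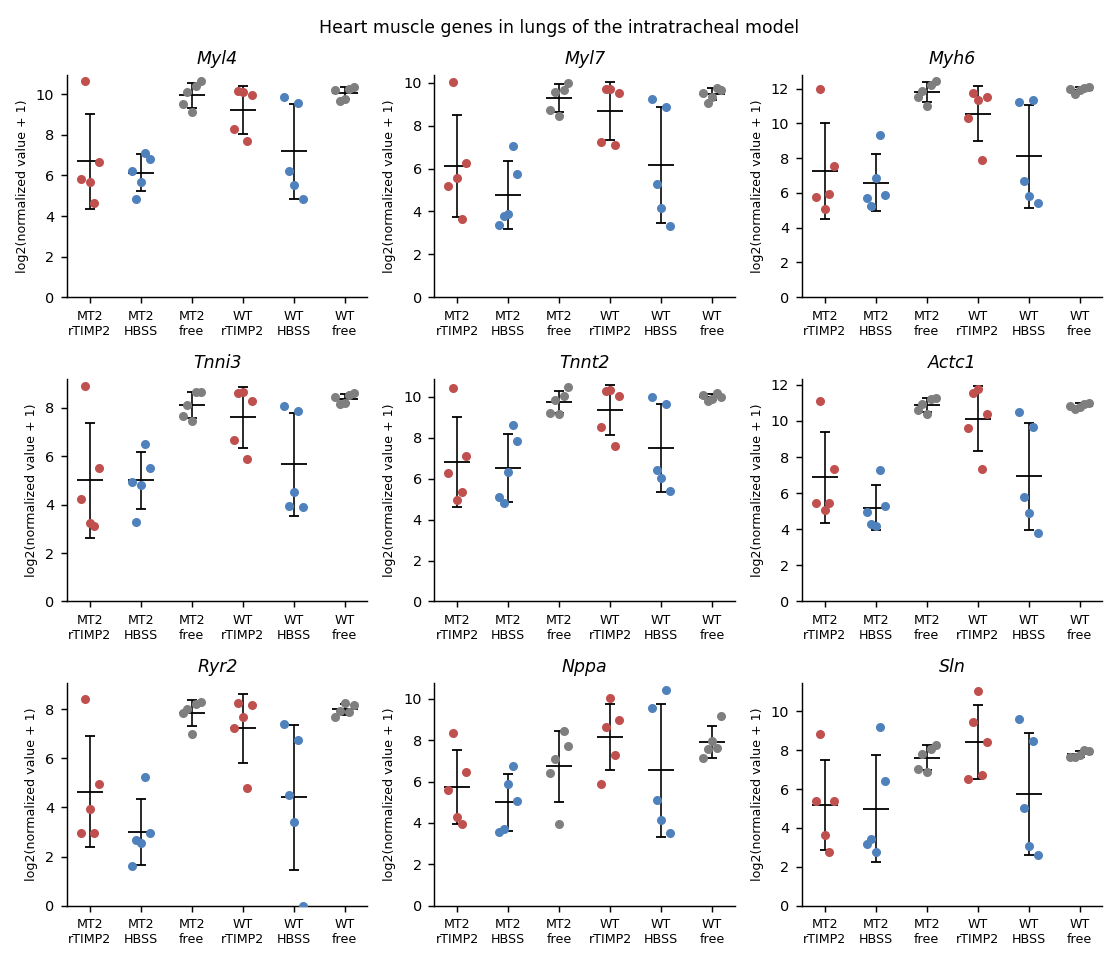
Each of the 9 panels plots log2 of the normalized value plus 1 of one gene in the 30 lungs of the intratracheal model; points are lungs, the wide bar is the mean and the whiskers are 1 SD (n = 5 per group; "free" stands for tumour-free). Tumour-free lungs sit high and close together except for Nppa, while the lungs given tumour cells spread over a wide range, with MT2 rTIMP2 replicate 2, WT rTIMP2 replicates 2, 3 and 5 and WT HBSS replicates 1 and 4 near the tumour-free level.

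In MT2 mice, lungs given tumour cells with HBSS carried far less heart muscle RNA than tumour-free lungs, and 8 of the 9 genes fell. All genes tested gave 35.9% lower calls in the same comparison, so a fall was common in these lungs. Myh6, the motor of the thick filament, was at 50.6, 36.6, 116, 643 and 56.9 in the MT2 HBSS lungs, against 2941, 3672, 2007, 4684 and 5450 in the MT2 tumour-free lungs. Every tumour lung lay below every tumour-free lung, with replicate 4 the highest. Its log2 fold change was -5.19 ± 0.66 (SE), a 36.6-fold lower level, with an adjusted p of 3.42e-05 by limma with Benjamini-Hochberg adjustment.

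Actc1, the main actin of the thin filament, fell most, with a log2 fold change of -5.69 ± 0.50 (limma adjusted p = 2.70e-06). It was at 29.6, 18.3, 17.4, 155 and 38.4 in the MT2 HBSS lungs, against 1537, 1975, 1358, 2410 and 2469 in the MT2 tumour-free lungs. The light chains Myl7 and Myl4 had log2 fold changes of -4.52 ± 0.66 and -3.82 ± 0.42, and the channel Ryr2 of -4.86 ± 0.57. The troponins, which make the thin filament respond to calcium, had log2 fold changes of -3.12 ± 0.51 (Tnni3) and -3.22 ± 0.67 (Tnnt2). The difference in size between genes was not tested.

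Sln and Nppa stood apart from the other 7 in the MT2 comparison. Sln, which slows the calcium pump of atrial and skeletal muscle, was at 8.17, 9.68, 5.80, 578 and 83.5 in the MT2 HBSS lungs, against 133, 227, 115, 268 and 309 in the MT2 tumour-free lungs. Replicate 4 lay above every tumour-free lung, and the groups overlapped. The log2 fold change of -2.63 ± 1.07 passed narrowly (limma adjusted p = 0.0465), and leaving out any one of 8 of the 10 lungs raised the adjusted p to between 0.0557 and 0.115; the exceptions were MT2 HBSS replicates 4 and 5. Nppa was at 10.8, 12.3, 58.3, 108 and 32.9 in the MT2 HBSS lungs, against 85.0, 137, 14.5, 348 and 212 in the MT2 tumour-free lungs, and did not pass (log2 fold change -1.73 ± 0.85, limma adjusted p = 0.0904). It passed without MT2 HBSS replicate 4 (-2.17, adjusted p = 0.0410) or without MT2 tumour-free replicate 3 (-2.42, adjusted p = 0.00947). For 7 of the 9 genes, all but Nppa and Sln, every MT2 HBSS lung was below every MT2 tumour-free lung, as for 31.4% of all genes tested.

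In WT mice, 7 of the 9 genes fell in lungs given tumour cells with HBSS against tumour-free lungs, where 37.7% of all genes tested fell. The WT tumour group was uneven. Myh6 was at 2423, 102, 54.6, 2633 and 42.4 in the WT HBSS lungs, against 3984, 3336, 3812, 4163 and 4335 in the WT tumour-free lungs. Replicates 1 and 4 lay nearer the tumour-free level, and the other 3 lungs lay far below it. Its log2 fold change was -3.83 ± 1.14 (limma adjusted p = 0.0110).

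Actc1 was at 1453, 54.7, 29.1, 803 and 13.1 in the WT HBSS lungs, against 1821, 1591, 1747, 1926 and 2037 in the WT tumour-free lungs, with the same pair of lungs high. Its log2 fold change was -3.89 ± 1.14 (limma adjusted p = 0.0103). The log2 fold changes of the other genes that fell were -3.58 ± 1.14 for Ryr2, -3.29 ± 1.05 for Myl7, -2.86 ± 0.91 for Myl4, -2.72 ± 0.83 for Tnni3 and -2.49 ± 0.83 for Tnnt2, and Ryr2 was listed at 0 in WT HBSS replicate 5. The Tnnt2 call was lost without WT HBSS replicate 2 (limma adjusted p = 0.0511) or replicate 3 (0.0520). For Actc1, Myh6, Ryr2 and Tnni3 the WT tumour and tumour-free lungs did not overlap, and 31.1% of all genes tested were lower without overlap.

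Nppa and Sln did not pass in WT mice. Nppa was at 749, 33.9, 16.5, 1366 and 10.3 in the WT HBSS lungs, against 141, 188, 252, 194 and 576 in the WT tumour-free lungs. The 2 lungs with high heart muscle RNA thus held more Nppa than any tumour-free lung, and the log2 fold change of -1.35 ± 1.27 did not pass (limma adjusted p = 0.358). Sln was at 775, 31.7, 7.28, 356 and 5.04 in the WT HBSS lungs, against 199, 201, 215, 257 and 247 in the WT tumour-free lungs (log2 fold change -2.05 ± 1.22, limma adjusted p = 0.153), and it passed without WT HBSS replicate 1 (-3.02, adjusted p = 0.0202). WT HBSS replicates 1 and 4 are among the 6 libraries with high skeletal muscle markers and the 5 of them with high Krt13, and replicate 4 is the only one of the 30 intratracheal libraries with Bmp10 above 2.29, at 46.1.

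The same 2 lungs carried the tumour cell reporter. Luc was at 55.6 and 69.2 in WT HBSS replicates 1 and 4, against 39.3 to 49.2 in replicates 2, 3 and 5. Relative to the WT tumour-free mean, the median log2 difference of the 9 heart muscle genes was -0.24 and -0.51 in replicates 1 and 4. That of 7 endothelial markers was -1.67 and -3.11, and that of the epithelial markers -1.13 and -2.42. The smooth muscle markers were at -0.37 and -1.61, so in replicate 1 they lay about as near the tumour-free level as the heart muscle genes. In replicates 2, 3 and 5 the heart muscle genes were at -3.84, -4.57 and -5.23 and the endothelial markers at -3.67, -3.99 and -3.79. Without the 6 libraries high in skeletal muscle markers, all 9 genes fell in WT mice, with Nppa at -3.64 (limma adjusted p = 3.18e-05) and Sln at -4.25 (6.92e-06), and all 9 fell in MT2 mice, with Nppa at -2.17 (0.0410) and Sln at -3.68 (0.000668). The share of all genes that fell in this refit is not given, so the 9 genes are not set against it. This alternative was chosen after the values were seen, and the part of other muscle or of neighbouring tissue in these values was not tested.

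**Figure D2:**
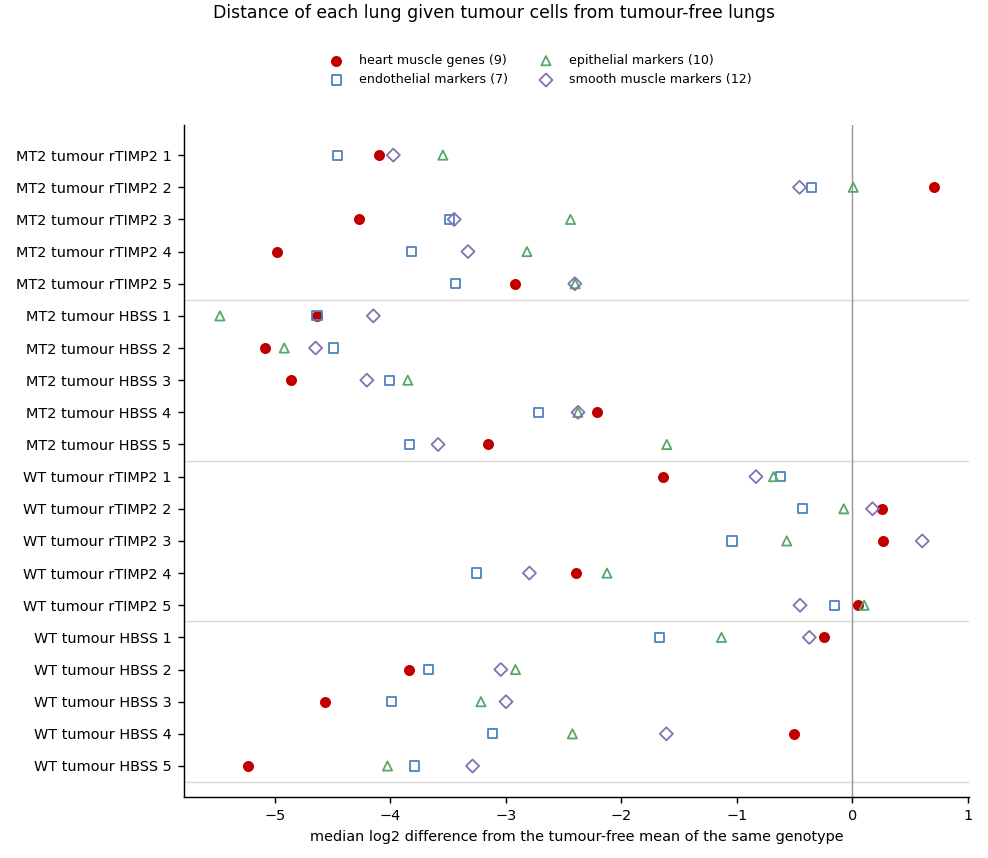
For each of the 20 lungs given tumour cells by the trachea, the horizontal axis gives the median log2 difference from the tumour-free mean of the same genotype over the 9 heart muscle genes (filled circles), 7 endothelial markers (squares), 10 epithelial markers (triangles) and 12 smooth muscle markers (diamonds). The heart muscle genes lie at -0.24 and -0.51 in WT HBSS replicates 1 and 4, to the right of the endothelial markers at -1.67 and -3.11. The epithelial markers lie at -1.13 and -2.42 there, and the smooth muscle markers at -0.37 and -1.61, close to the heart muscle genes in replicate 1.

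The other cell types of the lung were lower in the same tumour lungs. In MT2 and in WT mice, 10 of 10 alveolar and airway epithelium markers and 7 of 7 endothelial markers fell. Smooth muscle markers fell for 10 of 12 tested genes in MT2 mice and for 8 of 11 in WT mice. The summed epithelial markers ran from 11929 to 271635 in MT2 HBSS lungs, against 596707 to 649255 in MT2 tumour-free lungs, and from 32259 to 296826 in WT HBSS lungs, against 617528 to 688835 in WT tumour-free lungs. The median log2 fold change of the heart muscle genes was -3.82 in MT2 mice, beside -4.10 for the endothelial, -3.59 for the epithelial and -3.62 for the smooth muscle markers, and -0.05 for all genes tested. In WT mice these medians were -2.86, -3.10, -2.73, -1.98 and -0.07.

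Ratios within a library were set against Myh6. Actc1 over Myh6 was at 0.150 to 0.675 in MT2 HBSS lungs, against 0.453 to 0.677 in MT2 tumour-free lungs, so the ranges overlapped. It had a median of 0.533 and a lowest value of 0.305 in WT HBSS lungs, against 0.457 to 0.477 in WT tumour-free lungs, and reached 1.36 in WT rTIMP2 lungs. Sln over Myh6 did not exceed 0.0618 in WT tumour-free lungs (median 0.0571). Sln over Myh6 was wider and higher in lungs given tumour cells: 0.0502 to 1.47 in MT2 HBSS lungs and 0.119 to 0.320 in WT HBSS lungs. In WT rTIMP2 replicate 3, the library with the highest skeletal muscle markers, it was 0.811. Nppa over Myh6 was 0.169 to 0.579 in MT2 HBSS lungs, against 0.00723 to 0.0742 in MT2 tumour-free lungs, and 0.243 to 0.519 in WT HBSS lungs, against 0.0353 to 0.133 in WT tumour-free lungs. The ratio was thus higher in every HBSS tumour lung than in any tumour-free lung of its genotype, including lungs whose skeletal muscle markers were not raised. The troponins shared this pattern. Tnnt2 over Myh6 was 0.614 to 3.96 in MT2 HBSS lungs, against 0.201 to 0.288 in MT2 tumour-free lungs, and 0.307 to 1.18 in WT HBSS lungs, against 0.234 to 0.279 in WT tumour-free lungs. Tnni3 over Myh6 was 0.138 to 0.778 in MT2 HBSS lungs, against 0.0690 to 0.0872 in MT2 tumour-free lungs, and 0.0888 to 0.400 in WT HBSS lungs, against 0.0766 to 0.0885 in WT tumour-free lungs. Myl4 over Myh6 had a higher median in HBSS tumour lungs than in tumour-free lungs (0.765 against 0.284 in MT2, 0.643 against 0.295 in WT mice). So did Myl7 over Myh6 (0.207 against 0.176, 0.246 against 0.182), and both had overlapping ranges. In MT2 mice the medians of Actc1 and Ryr2 over Myh6 were not higher (0.500 against 0.523, 0.0577 against 0.0637). In WT mice they were higher (0.533 against 0.463, 0.0685 against 0.0665), with overlapping ranges. All these ratios share Myh6 as denominator, and its part in them was not tested. The ratios were chosen after the values were seen and carry no test. In the lungs with least heart muscle RNA some rest on values near or under 10, such as Sln at 5.04 and Ryr2 at 0 in WT HBSS replicate 5.

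**Figure D3:**
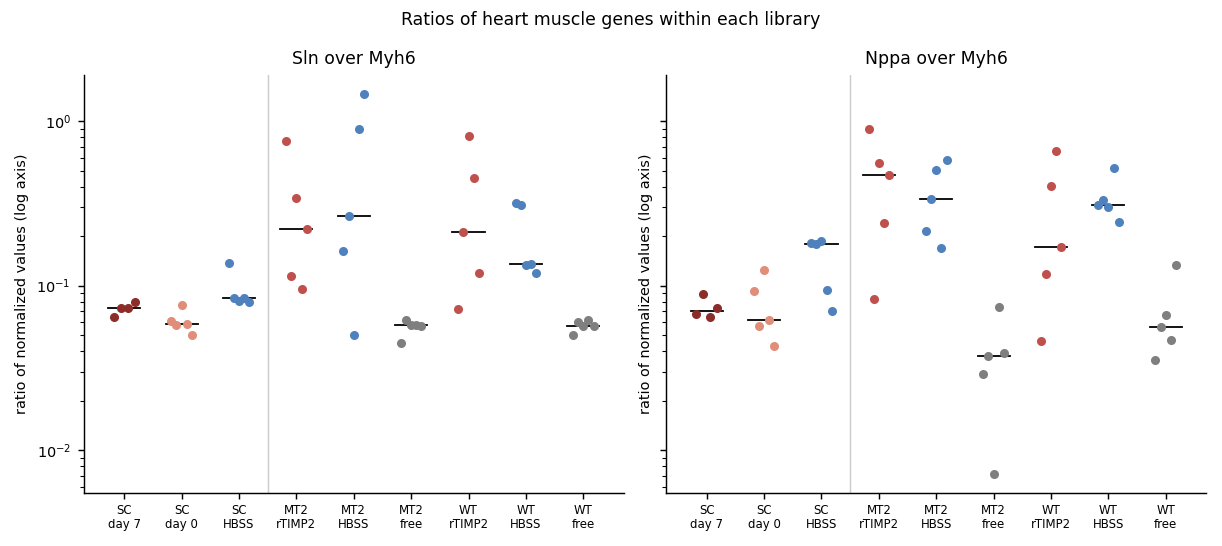
The ratio of normalized values of Sln over Myh6 (left) and Nppa over Myh6 (right) is plotted on a log axis for every library; points are lungs, the bar is the group median, and the vertical line separates the subcutaneous (SC) from the intratracheal groups. Tumour-free lungs lie between 0.0451 and 0.0620 for Sln over Myh6, and Nppa over Myh6 lies higher in every HBSS tumour lung than in the tumour-free lungs of its genotype.

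No difference between genotypes was detected in tumour-free lungs. None of the 9 genes passed between MT2 and WT tumour-free lungs (limma; 0 had an unadjusted p under 0.05; lowest adjusted p = 0.672), where 0.0238% of all genes passed. The log2 fold changes ran from -1.16 ± 0.84 for Nppa to 0.06 ± 0.17 for Actc1. MT2 lungs varied more: Myh6 averaged 3751 ± 1366 in MT2 tumour-free lungs and 3926 ± 384 in WT tumour-free lungs (SD, n = 5 each). Without MT2 tumour-free replicate 3, the lowest MT2 lung, the sign turned for Myl4 (0.10), Myl7 (0.02), Myh6 (0.06), Ryr2 (0.09) and Sln (0.01), so no direction is given for them.

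Between MT2 and WT lungs given tumour cells with HBSS, 0 of the 8 genes tested passed (limma; 0 had an unadjusted p under 0.05), and 0 of 16299 genes did (1208 at an unadjusted p under 0.05; percent called 0). Ryr2 did not pass the filter on low values there. The 8 log2 fold changes were negative, from -1.74 ± 1.20 for Actc1 to -0.66 ± 0.92 for Tnni3. Without the 6 libraries high in skeletal muscle markers, those of Myl4, Tnni3, Tnnt2 and Nppa turned positive, and without WT HBSS replicate 1 that of Sln did (0.20). The change with tumour cells and HBSS was not shown to differ between genotypes either. For the interaction of genotype with tumour, 0 of 9 genes passed (limma, 0 at an unadjusted p under 0.05, lowest adjusted p = 0.695), with 0.0223% of all genes called.

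Treatment with rTIMP2 gave a mixed picture in the intratracheal model. In WT mice, the lungs given tumour cells with rTIMP2 held Myh6 at 1252, 3391, 2577, 236 and 2893, against 2423, 102, 54.6, 2633 and 42.4 in those with HBSS. Replicate 2 of the rTIMP2 group lay within the WT tumour-free range of 3336 to 4335, replicates 3 and 5 below it, replicate 1 lower and replicate 4 lowest. Actc1 was at 780, 2987, 3512, 159 and 1354 in the WT rTIMP2 lungs, against 1453, 54.7, 29.1, 803 and 13.1 in the WT HBSS lungs. The groups overlapped for all 9 genes.

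None of the 9 genes passed between WT rTIMP2 and WT HBSS lungs (limma; 1, Actc1, had an unadjusted p under 0.05), whereas 27.3% of all genes were called and 16.0% were called higher. The log2 fold changes were all positive, from 1.61 ± 1.40 for Nppa to 3.19 ± 1.35 for Actc1 (adjusted p = 0.370 and 0.0876), with a median of 2.44 beside 2.07 for the endothelial and 2.14 for the epithelial markers. Of those markers, 6 of 7 and 10 of 10 passed as higher. Without WT HBSS replicate 1, 7 of the 9 heart muscle genes were called higher, all but Myh6 and Nppa, and without WT rTIMP2 replicate 4 Actc1 (3.90, adjusted p = 0.0310) and Ryr2 (3.42, 0.0454) were. The count over all genes, 4619, also rested on single lungs. It was 0 without any one of the other 8 lungs and reached 9584 at the highest. The share of all genes called higher in each refit is not given, so 7 of 9 is not read as particular to these genes.

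The level of heart muscle genes in treated lungs was high where the reporter Luc was low. In WT rTIMP2 replicates 2, 3 and 5 Luc was listed at 0 and the 9 genes summed to 11402, 13034 and 8479, against 8074 to 10982 in WT tumour-free lungs. In WT rTIMP2 replicates 1 and 4 Luc was at 23.3 and 67.7 and the genes summed to 3258 and 1274. WT rTIMP2 replicates 2 and 3 are also among the libraries high in skeletal muscle markers, and replicate 5, with these markers at 279, is not. In replicate 5 the median of the 9 genes was 0.05 above the WT tumour-free mean on the log2 scale. The endothelial and epithelial markers were at -0.15 and 0.10 there, so the level was not particular to heart muscle genes. In replicate 4 the medians were -2.39 for the 9 genes, -3.25 for the endothelial and -2.12 for the epithelial markers.

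In MT2 mice, 1 of the 5 rTIMP2 lungs held heart muscle RNA at the tumour-free level. Myh6 was at 53.0, 3954, 33.4, 61.1 and 186 in the MT2 rTIMP2 lungs, against 50.6, 36.6, 116, 643 and 56.9 in the MT2 HBSS lungs. Replicate 2, the high lung, had Luc at 0.983, against 37.9 to 75.5 in the other 4, and its skeletal muscle markers summed to 367. Its endothelial and epithelial markers were also near the MT2 tumour-free mean, with median log2 differences of -0.35 and 0.01. In replicates 1, 3, 4 and 5 the endothelial markers were at -4.46, -3.49, -3.82 and -3.44. None of the 8 genes tested passed (limma; 0 at an unadjusted p under 0.05, lowest adjusted p = 0.588), and 0 of 16248 genes did (1559 at an unadjusted p under 0.05; percent called 0). The log2 fold changes ran from -0.00 ± 1.02 for Tnni3 to 1.67 ± 1.07 for Actc1. Without replicate 2 those of Myl4, Myh6, Tnnt2 and Sln turned negative, at -0.43, -0.50, -0.61 and -0.70. For the interaction of genotype with rTIMP2, 0 of 9 genes passed (limma; 0 at an unadjusted p under 0.05), and 0 of 17841 genes did (1053 at an unadjusted p under 0.05; percent called 0).

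In the subcutaneous model 3 of the 9 genes fell in 1 or the other comparison of rTIMP2 with HBSS, and the others did not pass. With rTIMP2 from day 0, all 9 log2 fold changes were negative (median -0.82, against -0.00 for all genes tested), and 2 genes fell, Ryr2 and Myl4, where 4.21% of all genes fell. With rTIMP2 from day 7, all 9 were negative (median -0.50, against 0.01), and Tnni3 fell, where 5.92% of all genes fell. An unadjusted p under 0.05 (limma) was reached by 9 of the 9 genes for day 0, beside 4496 of 17282 genes. For day 7 it was reached by 8 of the 9, beside 4687 of 17389 genes. The 9 genes moved together from lung to lung, so these are not independent counts. Both comparisons use the same 5 HBSS lungs.

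Ryr2, which releases calcium from the store of the muscle cell, was at 355, 354, 475, 429 and 364 in the day 0 lungs, against 640, 527, 692, 430 and 675 in the HBSS lungs. HBSS replicate 4 was the low control and lay within the treated range, so that the groups overlapped. The log2 fold change was -0.57 ± 0.13 (limma adjusted p = 0.0181). In the day 7 lungs Ryr2 was at 447, 525, 401 and 438 (log2 fold change -0.37 ± 0.14, adjusted p = 0.105).

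Myl4 was at 901, 751, 1500, 793 and 667 in the day 0 lungs, against 2121, 1580, 1612, 1177 and 1714 in the HBSS lungs. Day 0 replicate 3 was the high treated lung, as it was for all 9 genes. The log2 fold change of -0.87 ± 0.23 passed narrowly (limma adjusted p = 0.0486). Leaving out any one lung other than day 0 replicate 3 and HBSS replicate 4 raised the adjusted p to between 0.0856 and 0.107. In the day 7 lungs Myl4 was at 1250, 1200, 1177 and 1061 (-0.46 ± 0.14, adjusted p = 0.0598).

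Tnni3, the inhibitory troponin of the heart, was at 263, 258, 269 and 215 in the day 7 lungs, against 512, 336, 359, 320 and 419 in the HBSS lungs. All 4 treated lungs lay below all 5 control lungs, and the log2 fold change was -0.61 ± 0.13 (limma adjusted p = 0.0108). In the day 0 lungs it was at 228, 209, 362, 165 and 135 (-0.88 ± 0.24, adjusted p = 0.0514). Its partner Tnnt2 gave -0.46 ± 0.14 in the day 7 lungs and -0.81 ± 0.22 in the day 0 lungs (adjusted p = 0.0653 and 0.0571).

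Nppa and Sln had the largest fold changes with the widest spread. Nppa was at 305, 394, 263 and 256 in the day 7 lungs and 394, 221, 762, 213 and 133 in the day 0 lungs, against 1418, 825, 1195, 403 and 483 in the HBSS lungs. All day 7 lungs lay below all HBSS lungs, while day 0 replicate 3 overlapped with them. The log2 fold changes of -1.36 ± 0.41 for day 7 and -1.43 ± 0.55 for day 0 did not pass (limma adjusted p = 0.0808 and 0.144). Sln was at 293, 323, 297 and 279 in the day 7 lungs and 261, 225, 468, 199 and 156 in the day 0 lungs, against 1070, 390, 517, 361 and 546 in the HBSS lungs. It did not pass either (-0.84 ± 0.30 and -1.12 ± 0.37, limma adjusted p = 0.118 and 0.0968), and HBSS replicate 1, its highest value, is the control lung with skeletal muscle markers at 18612. In the day 7 comparison 3 genes, Nppa, Sln and Tnni3, were lower without overlap, where 8.12% of all genes were, and in the day 0 comparison 0 were, where 4.65% of all genes were.

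The remaining 3 genes, Myh6, Myl7 and Actc1, did not pass in either comparison. Myh6 was at 4566, 4408, 4084 and 3512 in the day 7 lungs and 4252, 3897, 6161, 3430 and 3100.1 in the day 0 lungs, against 7758, 4636, 6441, 4300.4 and 6854 in the HBSS lungs. The counts of called genes rested on single lungs. With single lungs left out, 861 to 1453 of all genes were called either way for day 0 and 834 to 2149 for day 7. The full fits tested 17282 and 17389 genes, and the share called lower in each refit is not given. Without day 0 replicate 3, 8 of the 9 genes were called lower in the day 0 comparison, all but Nppa, and without HBSS replicate 4, 8 of the 9 were called lower in the day 7 comparison, all but Sln. Without HBSS replicate 1, the day 0 comparison kept 1 call, Ryr2 (-0.54, limma adjusted p = 0.0348), and the day 7 comparison had 4, namely Tnni3 (-0.51, 0.00650), Sln (-0.59, 0.00869), Tnnt2 (-0.35, 0.0253) and Myl4 (-0.36, 0.0432).

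**Figure D4:**
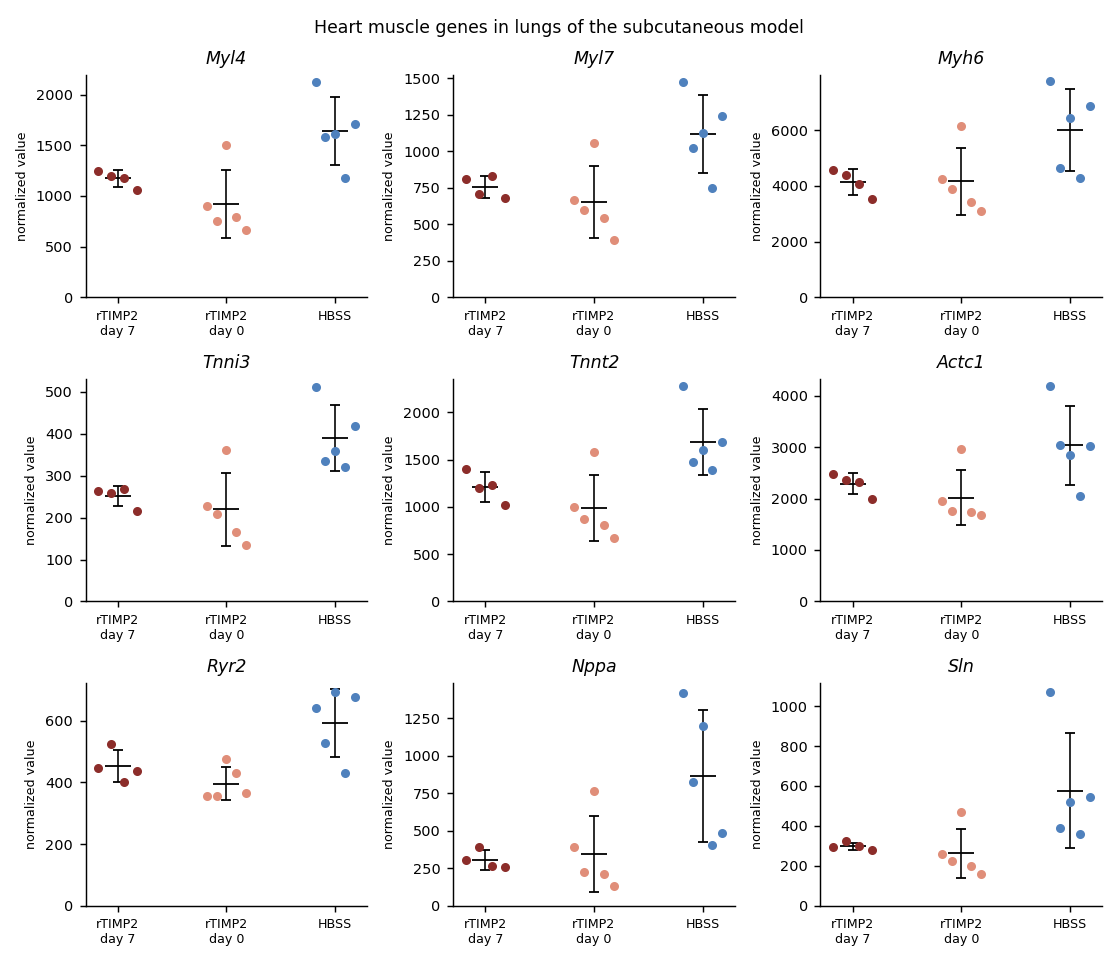
Each of the 9 panels plots the normalized value of one gene in the 14 lungs of the subcutaneous model; points are lungs, the wide bar is the mean and the whiskers are 1 SD (n = 4 for rTIMP2 from day 7, n = 5 for rTIMP2 from day 0 and for HBSS). Day 0 replicate 3 is the highest day 0 lung and HBSS replicate 4 the lowest control lung for all 9 genes, so that only Nppa, Sln and Tnni3 in the day 7 group lie wholly below HBSS.

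Between rTIMP2 from day 7 and from day 0, 0 of 9 genes passed (limma; 0 had an unadjusted p under 0.05), and 0.235% of all genes did. The log2 fold changes ran from 0.03 ± 0.19 for Myh6 to 0.41 ± 0.22 for Myl4. Without day 0 replicate 3, Myl4 passed as higher in the day 7 lungs (0.60, limma adjusted p = 0.0286), and the values of Myh6 and Nppa took either sign as single lungs were left out.

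**Figure D5:**
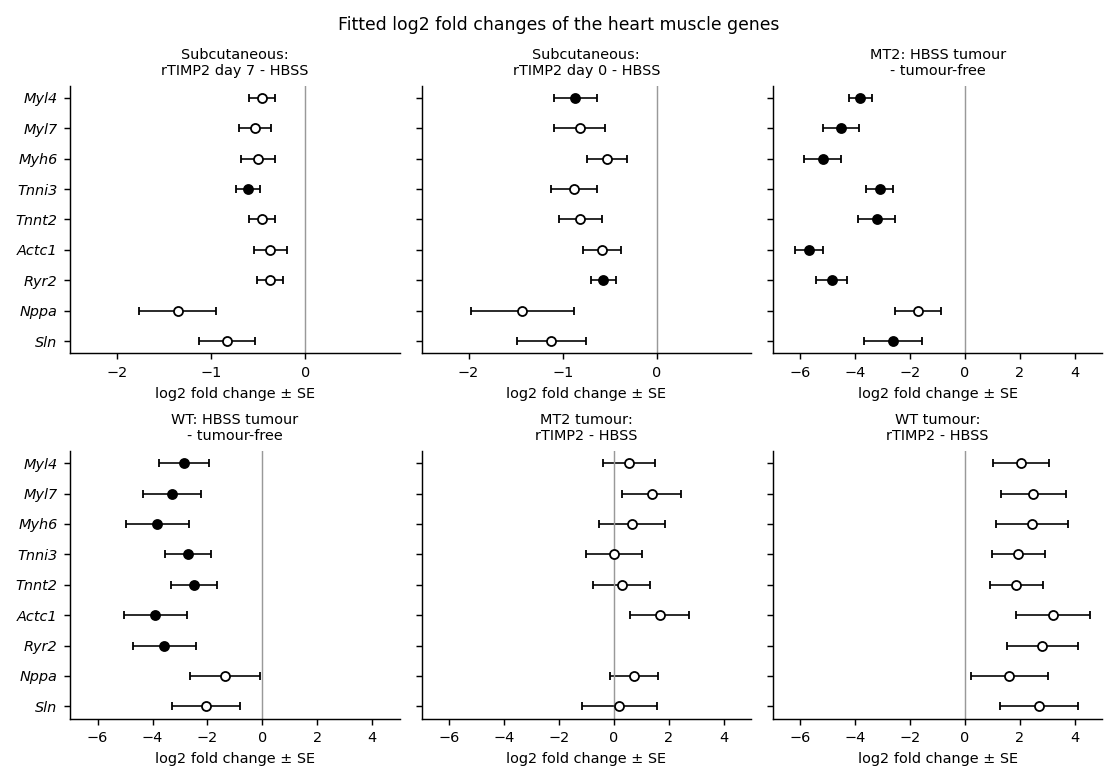
Fitted log2 fold changes (points) with their SE (whiskers) are plotted for the 9 genes in 6 comparisons, each the first-named group minus the second; filled points passed at a limma adjusted p under 0.05, and Ryr2 was not tested in MT2 rTIMP2 against HBSS. The values lie below 0 in both subcutaneous comparisons and in both tumour comparisons, and 2, 1, 7 and 8 genes passed for day 0, day 7, WT tumour and MT2 tumour.

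Other genes known from heart muscle were counted from lists. Some of them, such as Atp2a2, Gja5, Hey2 and Tbx5, are also made elsewhere, so these counts are not of heart muscle cells alone. Among other sarcomere genes, 4 of 18 tested fell with rTIMP2 from day 7 and 4 of 18 with rTIMP2 from day 0 in the subcutaneous model, where 5.92% and 4.21% of all genes fell; these shares are the background for each list of heart genes in that model. Xirp1, an actin-binding protein of the intercalated disc, had log2 fold changes of -1.28 ± 0.27 for day 7 and -1.83 ± 0.33 for day 0 (limma adjusted p = 0.0131 and 0.00562). Mybphl, a myosin-binding protein of atrial muscle and the conduction system in mice, had -0.71 ± 0.13 and -0.82 ± 0.17 (0.00640 and 0.00923). Mybpc3, the cardiac myosin-binding protein C, had -0.80 ± 0.15 and -0.79 ± 0.20 (0.00739 and 0.0288). Tnnc1, the calcium-binding troponin, fell for day 7 (-0.61 ± 0.16, 0.0267) and the Z-disc protein Actn2 for day 0 (-0.91 ± 0.20, 0.0181).

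Among calcium handling genes, 2 of 10 fell for day 7 and 3 of 10 for day 0. The calcium pump Atp2a2 had log2 fold changes of -0.36 ± 0.08 for day 7 and -0.61 ± 0.09 for day 0 (limma adjusted p = 0.0130 and 0.00111), and Jph2, which holds the calcium store near the cell membrane, of -0.39 ± 0.10 and -0.46 ± 0.10 (0.0207 and 0.0157). Pln, the main inhibitor of that pump, fell for day 0 (-0.91 ± 0.24, 0.0484). Atp2a2 is also made by cells without sarcomeres. Of 10 muscle energy genes, 2 fell for day 7 and 1 for day 0, with Cox6a2, a muscle subunit of cytochrome oxidase, in both (-0.76 ± 0.15 and -0.77 ± 0.19, limma adjusted p = 0.00751 and 0.0265).

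Of ion channel and conduction genes, 1 of 11 fell for day 7, about the share over all genes (5.92%), and 2 of 11 for day 0 (4.21% over all genes). Kcnj5, a potassium channel subunit that answers to acetylcholine in the atrium, had log2 fold changes of -0.58 ± 0.17 and -0.70 ± 0.18 (limma adjusted p = 0.0393 and 0.0293), and Gja5, a gap junction protein of atrium and arteries, fell for day 0 (-0.40 ± 0.08, 0.00598). Of 11 heart transcription factor and hormone genes, 2 rose for day 7, and 1 rose and 1 fell for day 0. The share of all genes that rose is not given, so the rises are not set against it. Hey2, a Notch target of the ventricle and of vessels, rose by 0.81 ± 0.22 and 0.82 ± 0.20 (0.0319 and 0.0208).

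Markers of other tissues moved as well in the subcutaneous model. None of 11 skeletal muscle markers passed for either start day (limma), with sums of 256 to 310 in the day 7 lungs and 231 to 433 in the day 0 lungs, against 353 to 437 in 4 HBSS lungs and 18612 in the other one. Of 8 mesothelial markers, of the lining of the lung surface, 4 fell for day 7 and 1 for day 0, with sums of 1503 to 1930 and 1538 to 2872, against 2071 to 6792 in HBSS lungs. Wt1 had log2 fold changes of -2.75 ± 0.51 for day 7 and -2.08 ± 0.47 for day 0 (limma adjusted p = 0.00901 and 0.0213). Of 10 epithelial markers, 4 fell for day 7 and 2 for day 0, and of 12 smooth muscle markers 1 and 0 fell. Beside these counts, 5.92% of all genes fell for day 7 and 4.21% for day 0. The part of a different cut of the lung in the heart muscle values was not tested.

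In the intratracheal model, 14 of 18 other sarcomere genes fell in MT2 HBSS lungs against MT2 tumour-free lungs and 5 of 18 in WT HBSS lungs against WT tumour-free lungs. Over all genes 35.9% fell in MT2 and 37.7% in WT lungs, so the WT count lay below that background. The counts of genes that fell given next stand against the same shares. The share of all genes that rose is not given, so counts of genes that rose are not set against it. Mybphl had log2 fold changes of -5.13 ± 0.65 in MT2 and -3.10 ± 0.98 in WT lungs (limma adjusted p = 3.46e-05 and 0.0152). Of calcium handling genes, 6 of 10 fell and 1 rose in MT2 lungs, and 7 fell and 1 rose in WT lungs. Pln had -4.39 ± 0.88 and -3.37 ± 1.24 (0.000946 and 0.0304), and Fkbp1b, a regulator of ryanodine receptors, rose by 1.27 ± 0.19 and 0.48 ± 0.18 (0.000104 and 0.0281). Of ion channel genes, 10 of 10 tested fell in MT2 lungs and 7 of 9 in WT lungs.

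Of 10 heart transcription factor and hormone genes tested, 8 fell and 2 rose in MT2 HBSS lungs, and 7 fell and 2 rose in WT HBSS lungs. The 2 that rose were the same, Shox2, a factor of the sinus node and of pulmonary vein muscle in mice, and Gata4. Shox2 ran from 166 to 303 in MT2 HBSS lungs, against 3.81 to 10.3 in MT2 tumour-free lungs, and was at least 94.2 in WT HBSS lungs, against at most 4.82 in WT tumour-free lungs. In the rTIMP2 lungs with Luc at or below 0.983 it was at 18.7 in MT2 rTIMP2 replicate 2 and at 16.4, 94.0 and 2.09 in WT rTIMP2 replicates 2, 3 and 5. Tbx5, a factor of heart and lung, had log2 fold changes of -3.85 ± 0.45 in MT2 and -2.99 ± 0.38 in WT lungs (limma adjusted p = 1.80e-05 and 6.41e-05).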

How the data were processed

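Polyadenylated RNA of 44 mouse lungs was sequenced, and the authors deposited 2 tables of normalized counts per gene and library, used here as a normalized signal (24150 and 26940 genes). The tools named in the submitters' processing notes are DESeq2, STAR, Bowtie2 and Partek, with build mm10; roles, versions, strand use and the handling of shared reads are not stated there. The tables were normalized separately, so no level was compared across them. Low values were whole multiples of a step (within 0.02 of a step) in 78.9 to 84.5% of cases, too few to recover reads. No count model was therefore fitted.

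Samples were grouped by title, because the treatment label of the intratracheal rTIMP2 mice changes its number from mouse to mouse; a cell line is also named for the tumour-free lungs. The labels do not say that replicates are separate animals, so p-values measure only the spread between these samples. The titles of the tumour-free lungs name no HBSS, so tumour cells and vehicle were not told apart in comparisons with them. Their sample numbers also fall in another range than those of the tumour lungs, and the reason is not stated.

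The 11 comparisons were run in limma 3.58.1 under R 4.3.3 (eBayes with trend and robust) on log2 of the value plus 1. Each used its own groups only and genes reaching 10 in a number of samples equal to the size of the smaller group, with Benjamini-Hochberg adjustment over all genes tested; a gene was called at an adjusted p under 0.05. Fold changes on this scale understate those of low genes. The code was tested on simulated data. Coordinates and exon lengths came from GENCODE on mm10, and promoters from RefSeq on GRCm38.p6. Alternatives were another pseudocount (8), no filter, all groups in 1 fit, equal library totals, a replicate block, each library left out in turn and, added after seeing the data, leaving out the 6 libraries whose skeletal muscle markers summed to 1000 or more.

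The 9 genes and all lists were chosen with earlier results of these data known. By rule the 9 genes are always named, with at most 4 called genes of each other list in each direction, those with the largest fold changes, and the 10 protein-coding genes per table most like the 9 (mean of 50 or more). Values of other markers (Myl2, Myl3, Myh7, Bmp10, Nppb, Nkx2-5, Krt13) are given as checks. Some items are not reported here.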

Additional observations from a re-analysis of the deposited data

Results flagged for a closer look

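Of 81 sets of 5 or 4 lungs (1 gene in 1 group), 17 held a lung far from the others by Dixon's criterion on values without logs. The sets share lungs and the 9 genes moved together, so 17 of 81 is not set against a chance rate. In MT2 rTIMP2 replicate 2 all 9 genes were far above the other 4 lungs: Myh6 at 3954 (33.4 to 186 in the others), Actc1 at 2197 (32.0 to 160), Myl4 at 1605 (24.3 to 100.3), Tnnt2 at 1406 (30.2 to 138), Myl7 at 1051 (11.7 to 75.7), Tnni3 at 471 (7.77 to 44.0), Sln at 451 (5.83 to 40.9), Ryr2 at 337 (6.80 to 29.7) and Nppa at 329 (14.6 to 87.1). This lung had a reporter value of 0.983, and its endothelial and epithelial markers were near the MT2 tumour-free mean too (median log2 differences of -0.35 and 0.01).

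In MT2 HBSS replicate 4, one of the libraries high in skeletal muscle markers, Myh6 was at 643 (36.6 to 116 in the others), Sln at 578 (5.80 to 83.5), Actc1 at 155 (17.4 to 38.4) and Ryr2 at 37.1 (2.04 to 6.68). In the subcutaneous model, rTIMP2 day 0 replicate 3 had Actc1 at 2960 (1685 to 1955 in the others) and Myl4 at 1500 (667 to 901), and HBSS replicate 1 had Sln at 1070 (361 to 546). In WT tumour-free replicate 5, Nppa was at 576 (141 to 252 in the others).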

How the results depend on the processing

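The 7 and 8 genes called lower in WT and MT2 tumour lungs moved to between 6 and 9 under the alternatives run. Between genotypes (tumour-free or HBSS), for MT2 rTIMP2 against MT2 HBSS and for both interactions, 0 genes were called under each of them. For rTIMP2 from day 0 against HBSS, 2 genes became 1 with no filter, with equal totals or without the libraries high in skeletal muscle markers, 6 with all groups in 1 fit, and 1 to 8 with single lungs left out. For day 7 against HBSS, 1 became 0 with all groups in 1 fit, 4 without the library high in skeletal muscle markers, and 1 to 8 with single lungs left out. For day 7 against day 0 the range was 0 to 1, and for WT rTIMP2 against WT HBSS 0 to 7, with 3 in the fit of all groups. The cause was not tested. Over all genes, the fit of all groups gave 2298 calls for day 0 (1399 in the fit reported), 7773 for WT rTIMP2 (4619), 575 for MT2 rTIMP2 (0) and 119 between genotypes in HBSS lungs (0); leaving out single lungs gave 834 to 2149 for day 7 (1805) and 861 to 1453 for day 0. WT rTIMP2 gave 0 to 9584 with single lungs left out, and 0 without the libraries high in skeletal muscle markers.

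Same-numbered lungs did not deviate together in a common way: r over genes ran from -0.57 to 0.42 across comparisons. It was negative for every WT rTIMP2 and WT HBSS pair (-0.46 to -0.28). The numbers were not taken to pair the lungs. A replicate block gave 4 genes for day 7 against HBSS, moved that comparison's calls over all genes to 1087 and those of WT rTIMP2 to 0, and turned Myh6 (-0.070) and Nppa (-0.20) for day 7 against day 0.

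Reversed values were all of genes that did not pass. Without the libraries high in skeletal muscle markers, MT2 against WT HBSS lungs gave Myl4 0.37, Tnni3 0.51, Tnnt2 0.052 and Nppa 0.32, MT2 rTIMP2 gave Tnni3 0.37 (0.12 with a pseudocount of 8), and the interaction of genotype with tumour gave Myl4 0.47, Myl7 0.10, Myh6 0.080, Tnni3 0.77, Tnnt2 0.29, Nppa 1.47 and Sln 0.57. With single lungs left out, values took both signs for day 7 against day 0 in Myh6 (-0.070 to 0.18) and Nppa (-0.20 to 0.43); for tumour-free genotypes in Myl4 (-0.28 to 0.10), Myl7 (-0.36 to 0.023), Myh6 (-0.30 to 0.059), Ryr2 (-0.23 to 0.094), Sln (-0.35 to 0.0068) and Actc1 (-0.034 to 0.18); for HBSS genotypes in Sln (-1.81 to 0.20); for MT2 rTIMP2 in Tnni3 (-0.98 to 0.46), Myl4 (-0.43 to 1.07), Myh6 (-0.50 to 1.35), Tnnt2 (-0.61 to 0.82) and Sln (-0.70 to 1.25); and for the interaction of genotype with tumour in Tnni3 (-0.84 to 0.20), Nppa (-1.14 to 0.59) and Sln (-1.62 to 0.39). In the lowest tumour lungs values under 10 rest on few reads.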

Other observations

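Genes outside the 9 were ranked by how closely they followed them from lung to lung within a group (Pearson r of log2 values after subtracting each group's mean, over protein-coding genes with a mean of 50 or more). In the subcutaneous table (14 libraries, 3 groups, 12687 genes ranked) the closest was Fabp3, the fatty acid binding protein of heart and muscle (r = 0.97), followed by Ckmt2, the mitochondrial creatine kinase of sarcomeric muscle (0.95), Cox7a1 (0.94), Ndrg4 (0.94), Jph2 (0.94), the oxygen store Mb (0.93), Hrc (0.92), Actn2 (0.92), Ndufc1 (0.92) and Mybphl (0.91). In the intratracheal table (30 libraries, 6 groups, 12461 genes ranked) the closest was Popdc2, a membrane protein of striated muscle (0.96), followed by Mylk3, the cardiac myosin light chain kinase (0.96), Mybphl (0.96), Mybpc3 (0.94), Actn2 (0.94), Cnn1 (0.94), Pln (0.93), Rbm24 (0.93), Casq2 (0.93) and Art3 (0.93). These are descriptions over libraries that share groups and tissue pieces, and they carry no test. Among the 9 genes themselves, the 36 pairs had a median r of 0.90 in the subcutaneous table, from 0.46 for Tnni3 with Ryr2 to 0.97 for Tnni3 with Tnnt2, and of 0.92 in the intratracheal table, from 0.79 for Ryr2 with Nppa to 0.97 for Myl4 with Tnni3.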
